A study of Mus musculus with 6 samples.

Results

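The potassium channel subunits described here are 10 genes of the choroid plexus (ChP), chosen by their symbols from a table of 24354 gene names: Kcnj13, Kcnk1, Kcna1, Kcna3, Kcnq1, Kcnn4, Kcnma1, Kcne1, Kcne2 and Kcnip1. Ribosome-bound mRNA was sequenced after translating ribosome affinity purification (TRAP), in which a tagged ribosomal protein is pulled down from one kind of cell. The mice carried FoxJ1:cre and the bacTRAP allele EGFP:L10a at both ages, so the tagged ribosomes were made wherever FoxJ1, a regulator of motile cilia, had driven Cre. The 3 adult libraries came from mice of 60 days and the 3 embryonic libraries from ChP of embryonic day 16.5 (E16.5). The study's methods describe pooled tissue, and a sample is therefore not shown to be 1 animal, so that p-values measure the spread between these samples. Because the ribosomes come from bulk tissue, fewer cells of a type and less RNA per cell cannot be told apart.

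The ChP is a sheet of epithelial cells that secretes cerebrospinal fluid (CSF) into the ventricles. Its Na+/K+-ATPase sits in the apical membrane, which faces the CSF, and carries K+ into the cell while moving Na+ out. Potassium channels in that membrane let K+ leave again, which sustains the pump and keeps the membrane potential negative, while cotransporters move K+ with Cl-. A channel is built of pore-forming (alpha) subunits, and accessory (beta) subunits such as the KCNE proteins change how the pore opens and where it is placed.

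Levels are given as FPKM, fragments scaled to transcript length and to the mapped reads of the library, so that genes can be set side by side. Fold changes and tests are adult minus E16.5 on log2(FPKM + 1) from limma over the 11601 genes whose mean exceeded 1 FPKM, with p-values adjusted by the method of Benjamini and Hochberg and called below 0.05. The adult libraries were shallower and less alike than the embryonic ones. They listed 7599 to 11340 genes above 0, against 12761 to 13077 at E16.5. One small RNA gene, Mir6236, held 32.7 to 51.7% of all FPKM in adult libraries and 13.3 to 15% at E16.5. The median of all genes tested lay at a log2 change of -0.86, and changes are therefore also given relative to it. Of all genes tested, 2.12% were called higher in adult and 8.83% lower. Other scalings moved that balance. Calls to the adult side were 19.4% of all calls as reported, 34.5% after scaling by the median ratio, 53.0% after quantile normalization and 3.54% when every library was set to the same sum.

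Choroid plexus identity was checked with 14 epithelial marker genes, whose summed level was 39000 to 54000 FPKM in adult and 3470 to 3910 FPKM at E16.5. Without Ttr and Enpp2, the genes with the highest means of the list, the other 12 summed to 3200 to 3990 FPKM in adult and 3200 to 3610 FPKM at E16.5. None of the 14 was at 0 in every adult library. Ttr, the transthyretin gene and the best known product of this epithelium, was listed at 0 in all 3 E16.5 libraries, so that a 0 in this table can be a failed estimate and not an absence of mRNA, and the difference between the full sums rests in part on that 0. For that reason a gene is called here "listed at 0", and no fold is given against a group at 0. All 4 T cell markers in the table were at 0 in all 6 libraries.

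Of the 10 subunits, 4 passed the filter on low values: Kcnj13 and Kcnk1 were called higher in adult, and Kcne2 and Kcnip1 lower. Kcnip1 passed it through its E16.5 values alone. Over all genes tested, 2.12% were called higher in adult and 8.83% lower. The other 6 subunits, Kcnma1, Kcna1, Kcnq1, Kcne1, Kcnn4 and Kcna3, never exceeded 2.40 FPKM and were not tested. In all, 6 subunits were listed at 0 in every adult library, as were 50.5% of all names in the table, and 1 of them, Kcna3, was at 0 in all 6 libraries, as were 38.8% of names. The promoter sequences of the 3 subunits with values above 0 in every library are shown first, because these carry the comparison. They are the 250 bases before the transcript start, written 5′ to 3′ on the gene's own strand (RefSeq, GRCm38.p6), with capitals at any match, on either strand, to 5 short motifs: TAATCC (bound by OTX2 and related homeodomain proteins), TATAAA (the TATA box core), CCAAT (the CCAAT box core), TGTTTA (a forkhead core) or TGACG (part of the cAMP response element), the last base being the one before the start.
Kcnj13, chr1:87394730-87394979, minus strand: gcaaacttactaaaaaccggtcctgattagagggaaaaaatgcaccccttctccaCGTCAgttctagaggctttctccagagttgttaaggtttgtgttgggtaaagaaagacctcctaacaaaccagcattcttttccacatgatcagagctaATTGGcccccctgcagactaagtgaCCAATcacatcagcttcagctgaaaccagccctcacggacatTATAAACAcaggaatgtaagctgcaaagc
Kcnk1, chr8:125994852-125995101, plus strand: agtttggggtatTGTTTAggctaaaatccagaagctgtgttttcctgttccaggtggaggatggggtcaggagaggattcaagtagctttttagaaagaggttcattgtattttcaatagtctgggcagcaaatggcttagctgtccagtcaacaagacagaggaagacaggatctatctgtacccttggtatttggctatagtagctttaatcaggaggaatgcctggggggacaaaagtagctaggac
Kcne2, chr16:92292139-92292388, plus strand: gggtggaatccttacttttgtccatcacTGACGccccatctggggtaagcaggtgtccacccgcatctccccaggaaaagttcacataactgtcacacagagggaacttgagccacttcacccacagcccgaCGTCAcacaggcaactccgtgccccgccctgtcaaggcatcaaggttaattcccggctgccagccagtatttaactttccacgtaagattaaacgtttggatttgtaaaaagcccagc

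In the Kcnj13 promoter, TATAAA began 29 bases before the start and TAAACA, the reverse complement of TGTTTA, 27 bases before it, so that the matches overlap in 1 run of capitals. CCAAT began 71 bases before the start and its reverse complement ATTGG 96 bases before it. In the Kcne2 promoter TGACG lay at 222 bases and CGTCA at 118 bases before the start. In Kcnk1 the single match was TGTTTA at 238 bases. TAATCC was found in none of the 3 windows. Among 32851 promoters of the same length, 12.4% held TATAAA or its reverse complement, 33.8% CCAAT, 12.0% TGTTTA, 17.8% TGACG and 6.25% TAATCC. The Kcnj13 and Kcnk1 windows held 45.2 and 44.4% G or C, and Kcne2 held 52.4%, the median of all promoters. CpG pairs numbered 3 in Kcnj13, 0 in Kcnk1 and 9 in Kcne2, with a median of 6. A second annotated Kcne2 start, with its window at chr16:92295366-92295615, had 1 CpG pair, 48.0% G or C and no match to the 5 motifs. Kcna3 and Kcnma1 each held 31. These are matches of letters and not sites of binding. Promoters were matched for 7 of the 10 subunits.

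Kcnj13 encodes Kir7.1, an inward rectifier with a low sensitivity to outside K+ that is a major K+ channel of the apical membrane of this epithelium. Its level was 789.7, 1054 and 544.1 FPKM in adult replicates 1 to 3, and 105.4, 112.4 and 80.4 FPKM at E16.5. Every adult library was above every embryonic one, an order that held for 7.39% of genes tested, while the reverse order held for 31.0%. The means were 796 ± 255 and 99.4 ± 16.8 FPKM (SD, n = 3 each), an 8.01-fold difference of means. The log2 change was 2.95 (SE 0.31, adjusted p = 0.00387 by limma), or 3.81 relative to the median of all genes, in the 99.3 percentile of changes. Ranked within each library, Kcnj13 was gene 17, 24 and 48 in adult and gene 675, 639 and 864 at E16.5. An exact permutation test of 3 against 3 cannot go below p = 0.1, the value it gave.

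Kcnj13 lies on chromosome 1 at 87386363 to 87394729 (GRCm38, minus strand), and 3 of its exons, counted over all annotated transcripts, overlap Gigyf2, a gene of the opposite strand. Whether strand was used in counting is not given in the sources used here, so that reads of the pair may not be told apart. Gigyf2 was at 23.5, 24.6 and 25.4 FPKM in adult and 23.4, 14.1 and 20.6 FPKM at E16.5, with ranges that overlapped. The ratio of Kcnj13 to Gigyf2 was 33.7, 42.9 and 21.4 in adult and 4.5, 7.998 and 3.91 at E16.5.

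Kcnk1 encodes TWIK1, a 2-pore-domain K+ channel of the leak type. It is annotated on chromosome 8 at 125995170 to 126030685 (plus strand), where the annotation also places an antisense gene, Gm45875, which was not analysed here. Its level was 93.8, 114.8 and 191.2 FPKM in adult and 25.2, 30.5 and 19.98 FPKM at E16.5. The groups did not overlap, in an order that held for 7.39% of genes tested, and adult replicate 3 was the highest of all. The means were 133 ± 51.3 and 25.2 ± 5.25 FPKM (SD, n = 3 each), a 5.28-fold difference with a log2 change of 2.31 (SE 0.37, adjusted p = 0.0137 by limma). The change was 3.17 relative to the median of all genes. Without E16.5 replicate 3 the call was lost by a small margin (log2 change 2.16, adjusted p = 0.0503).

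**Figure D1:**
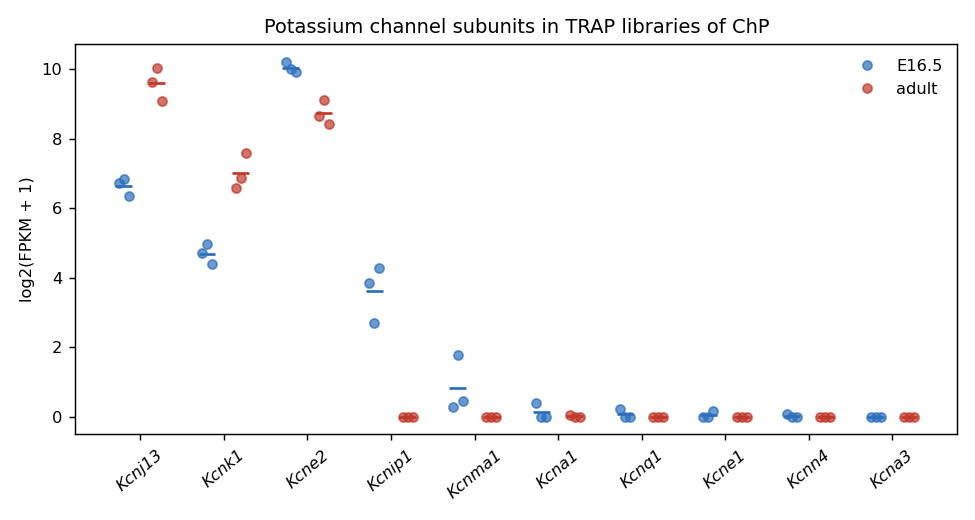
Level of each of the 10 subunits as log2(FPKM + 1), with E16.5 libraries in blue and adult libraries in red (1 point a library, 3 an age, bars at the mean). Kcnj13 and Kcnk1 sit higher in all 3 adult libraries, Kcne2 and Kcnip1 lower, and the other 6 lie at 0 or low, the highest point being Kcnma1 in E16.5 replicate 2 (2.40 FPKM).

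Kcne2 encodes MiRP1, a single-span beta subunit that is known to join Kcnq1 and Kcna3 pores in the apical membrane of the ChP, where its loss alters K+ currents. It lies on chromosome 16 at 92292389 to 92298129 (plus strand). Its level was 401.7, 555.9 and 340.4 FPKM in adult and 1184, 1029 and 963 FPKM at E16.5. Every adult library was below every embryonic one, an order that held for 31.0% of genes tested. The means were 433 ± 111 and 1058 ± 113 FPKM (SD, n = 3 each), 2.45-fold higher at E16.5, with a log2 change of -1.31 (SE 0.26, adjusted p = 0.0240 by limma). Relative to the median of all genes the change was -0.46, at the 36.7 percentile, so in this fit Kcne2 fell little more than the median gene tested. That relative value moved with the setting. It was -0.06 with a pseudocount of 0.1, 0.16 with 0.01, -0.40 with median-ratio scaling and -0.80 after quantile normalization. In rank it stood at gene 30, 34 and 22 at E16.5 and still at 50, 59 and 92 in adult. Its call was lost without adult replicate 1 (adjusted p = 0.0584), E16.5 replicate 1 (0.0955), E16.5 replicate 2 (0.0869) or E16.5 replicate 3 (0.0700), with log2 changes of -1.38 to -1.23. It was also lost after quantile normalization (log2 change -0.79, adjusted p = 0.0993).

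In FPKM, the order of the 2 leading subunits turned round between the ages. Within a library the Kcnj13 level was 1.97, 1.90 and 1.60 times that of Kcne2 in adult and 0.0891, 0.109 and 0.0835 times at E16.5. The ratio does not depend on how libraries are scaled to each other, and its values did not overlap. Which gene stands higher within an age does depend on the transcript lengths behind FPKM, and the annotation used is not given. At median coding lengths of 765 bases for Kcnj13 and 1661 for Kcne2, approximate reads placed Kcne2 higher in adult too. They were 2280, 7120 and 1500 for Kcne2 against 1730, 5220 and 930 for Kcnj13. On a log2 scale the ratio differed by 4.27 between the ages, and exact permutation gave p = 0.1, the smallest possible. The ratio was computed after the values were seen. Kcnk1 moved the same way, at 0.234, 0.207 and 0.562 times Kcne2 in adult and 0.0213, 0.0296 and 0.0208 times at E16.5, a log2 difference of 3.62. Kcnj13 relative to Kcnk1 overlapped between the ages, at 8.42, 9.19 and 2.85 in adult and 4.18, 3.69 and 4.02 at E16.5 (exact permutation p = 0.4).

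**Figure D2:**
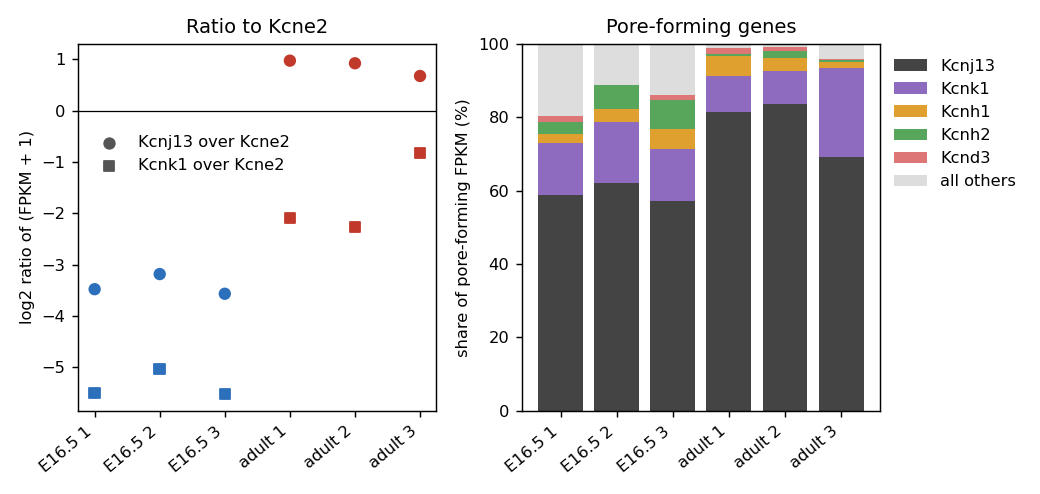
Left, log2 ratio of Kcnj13 (circles) and Kcnk1 (squares) to Kcne2 within each library, blue for E16.5 and red for adult. Right, share of the summed FPKM of 77 pore-forming genes held by 5 of them and by all others. Kcnj13 over Kcne2 is above 0 in all adult libraries and below 0 in all E16.5 libraries, on FPKM and so on the transcript lengths behind it.

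The channel transcripts were dominated by few genes. Kcnj13 held 81.5, 83.6 and 69.2% of the summed FPKM of 77 pore-forming genes in adult and 58.8, 62.0 and 57.2% at E16.5 (means 78.1 ± 7.83 and 59.3 ± 2.45%, SD, n = 3 each, exact permutation p = 0.1). Over the 7 pore-forming members alone its share overlapped between ages, at 89.4, 90.2 and 74.0% in adult and 80.2, 77.4 and 79.8% at E16.5, and the difference was 5.39 percentage points (exact permutation p = 0.4). Kcnk1 held 9.68, 9.11 and 24.3% in adult and 14.1, 16.8 and 14.2% at E16.5, with overlapping ranges. The adult mean leaned on adult replicate 3, the highest, and the small difference, lower in adult over all libraries, turned to 0.22, 1.67 and 1.95 percentage points in favor of adult without E16.5 replicate 2, adult replicate 1 and adult replicate 2. Kcne2 held 95.9 to 99.3% of the FPKM of 16 accessory genes at both ages. Of 93 potassium channel genes by symbol, 15, 20 and 14 were above 0 in adult and 39, 29 and 28 at E16.5. The embryonic libraries were deeper, at 4.19 to 5.18 times the depth of adult replicate 3 from the steps of low values, against 1.28 and 2.9 times for the other two adult libraries, and the part of depth in these counts was not tested.

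Kcnip1 encodes KChIP1, a calcium-binding accessory subunit of Kv4 channels that is best known from neurons. It is annotated on chromosome 11 at 33629339 to 33993152 (minus strand). It was listed at 0 in all 3 adult libraries and at 13.5, 5.46 and 18.4 FPKM at E16.5. The groups thus did not overlap, in an order that held for 31.0% of genes tested. A gene at 0 in every adult library was 6.46% of all genes tested. A count of 3 reads would be 0.209 to 0.605 FPKM in the adult libraries, estimated from low values and the median length of its annotated coding transcripts. The log2 change was -3.61 (SE 0.67, adjusted p = 0.0218 by limma), a size set by the pseudocount of 1. Kcnip1 passed the filter on low values through its E16.5 values alone, so a call could only be lower in adult. The call was lost when adult replicate 1 was left out (adjusted p = 0.0536), when E16.5 replicate 1 was left out (0.0530) and after quantile normalization (log2 change -2.48, adjusted p = 0.0705). It was lost also with the replicate number as a block (adjusted p = 0.0528).

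Neuronal markers were higher in sum at E16.5, but not as a whole list. The summed level of 7 genes was 2.25 to 8.86 FPKM in adult and 120.2, 20.3 and 19.1 FPKM at E16.5, and 3 of the 7 were at 0 in all adult libraries. Of the 6 tested, 1 was called lower in adult and 0 higher, against 8.83 and 2.12% of all genes tested. Map2, a neuronal cytoskeletal gene, was at 39.0, 14.9 and 18.7 FPKM at E16.5 and 0 to 4.53 FPKM in adult. Tubb3, a neuronal tubulin gene, was at 36.2, 0.623 and 0.134 FPKM at E16.5 and was not called. Syt1, a synaptic vesicle gene, had the opposite sign (log2 change 0.34) and was not called. Kcnip1 was highest in E16.5 replicate 3, where the neuronal sum was lowest. The part of these markers in the Kcnip1 result was not tested. Of the Kv4 pores that KChIPs join, Kcnd2 was at 0 to 1.59 FPKM in adult and 0 to 4.60 FPKM at E16.5. Kcnd3 was at 17.0, 13.1 and 0.739 FPKM in adult and 2.66, 0 and 1.69 FPKM at E16.5, with a sign opposite to that of Kcnip1 (log2 change 1.83). Neither was called as reported, and Kcnd3 was called higher after quantile normalization (3.07, adjusted p = 0.0293).

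The remaining 6 subunits were low or listed at 0 in every library. Kcnq1 encodes the slow voltage-gated pore that joins KCNE subunits. It was at 0.169 FPKM in E16.5 replicate 1, about 4.46 reads at the median length of its coding transcripts, and listed at 0 in the other 5 libraries. The antisense gene Kcnq1ot1, which overlaps 1 of its exons, was at 0 to 0.703 FPKM. Kcne1, a KCNE beta subunit known as a partner of Kcnq1 in heart and ear, was at 0.115 FPKM in E16.5 replicate 3 alone. Kcna3, the delayed rectifier Kv1.3 known from lymphocytes and from the apical membrane of ChP, was listed at 0 in all 6, where 3 reads would be 0.201 to 0.583 FPKM in adult and 0.112 to 0.139 FPKM at E16.5. The log2 ratio of Kcne2 to Kcnq1, with a pseudocount of 1, was 8.73 in adult and 9.97 at E16.5 on average, a difference of -1.24 (exact permutation p = 0.1). With a pseudocount of 0.1 the difference was -0.84 (exact permutation p = 0.2).

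Kcna1 encodes Kv1.1. It was at 0.0291 FPKM in adult replicate 1, about 0.383 of a read and so below 1 read. In E16.5 replicate 1 it was at 0.327 FPKM, about 14.0 reads, and it was listed at 0 in the other 4 libraries. Kcnn4, the intermediate-conductance calcium-activated channel of red blood cells and immune cells, reached 0.0455 FPKM in E16.5 replicate 1, about 1.01 reads, and was listed at 0 elsewhere. Red blood cell markers summed to 324, 54.1 and 107.9 FPKM at E16.5 and 0 to 6.49 FPKM in adult, and 4 of the 5 markers in the table were at 0 in all adult libraries. Macrophage markers summed to 0.0695 to 4.63 FPKM in adult and 0.401 to 8.41 FPKM at E16.5. Of the 6 macrophage markers, Aif1 and Cd68 were listed at 0 in all 6 libraries. Csf1r was at 0.0695 to 2.52 FPKM in adult and 0.327 to 3.58 FPKM at E16.5. C1qa was at 6.98, 0 and 2.78 FPKM at E16.5 and listed at 0 in adult. The part of these markers was not tested. Kcnma1, the pore of the large-conductance BK channel, was at 0.205, 2.40 and 0.367 FPKM at E16.5 and listed at 0 in adult. It was the only one of the 6 above 0 in every E16.5 library. With no filter it was not called (adjusted p = 0.267 by limma).

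Beyond these subunits no potassium channel gene passed the test. Of 93 genes by symbol, 38 were at 0 in all libraries and 19 were tested. Of these, 2 were called higher and 2 lower, all 4 being the subunits above, against 2.12 and 8.83% of all genes tested. None of the other 15 channel genes was called, and 4 of these had an unadjusted limma p below 0.05 (Kcnh1, Kcne1l, Kcnip2 and Kcnk4). Such a p was found for 3626 of all 11601 genes tested. The median log2 change of the 15 was -0.12, against -0.86 for all genes. Kcnh1, the voltage-gated EAG1 pore, was at 53.2, 44.3 and 12.2 FPKM in adult and 4.74, 6.22 and 7.66 FPKM at E16.5. The groups did not overlap, in an order that held for 7.39% of genes tested. The log2 change of Kcnh1, 2.17, missed the threshold (adjusted p = 0.0665). It was called without adult replicate 3 (2.80, adjusted p = 0.0124), after quantile normalization (3.26, adjusted p = 0.0161) or with sample quality weights (2.50, adjusted p = 0.0184). Kcnh2, the pore of the cardiac hERG current, was at 4.64, 22.7 and 5.24 FPKM in adult and 5.77, 12.1 and 11.1 FPKM at E16.5, overlapping widely (log2 change -0.12, adjusted p = 0.918), and its sign turned in 7 alternatives, as after quantile normalization (0.87). Kcnd3, Kcnab2 and Kcnn1 had log2 changes of 1.83, 0.56 and 1.79 and were not called, while with equal sums Kcnab2 turned to -0.11.

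**Figure D3:**
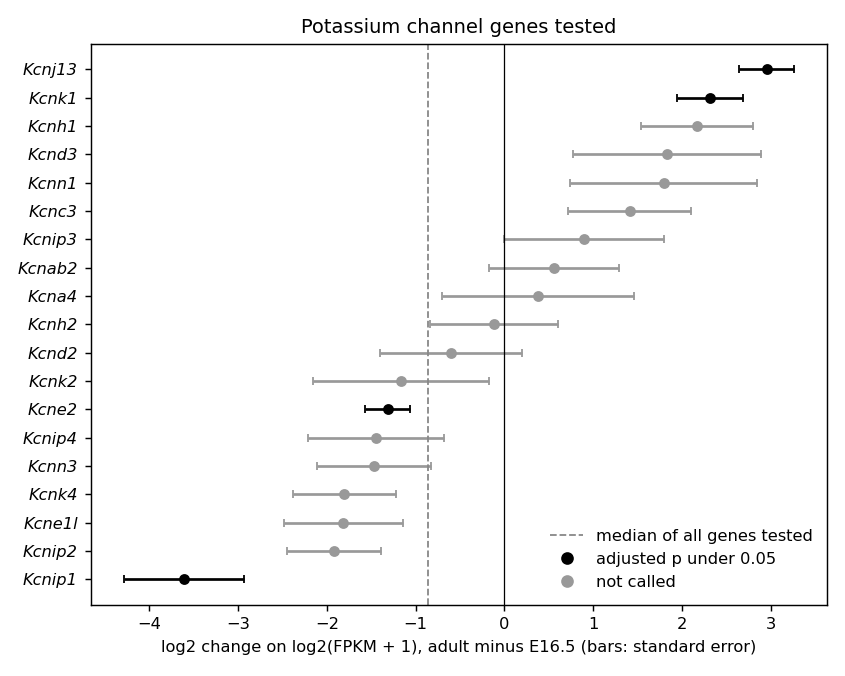
Log2 change of the 19 potassium channel genes tested, adult minus E16.5 on log2(FPKM + 1), with bars of 1 standard error. The dashed line marks the median of all genes tested (-0.86), and the 4 black points are the called genes Kcnj13, Kcnk1, Kcne2 and Kcnip1.

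Pumps and cotransporters move the K+ that these channels pass. Of 18 such genes 12 were tested, 6 were called higher in adult and 0 lower, with a median log2 change of 1.71. Over all genes tested, 2.12% were called higher and 8.83% lower. Atp1b1, a beta subunit of the pump, had a log2 change of 1.79 (adjusted p = 0.00801). Slc12a2, the Na+, K+ and Cl- cotransporter NKCC1 of the apical membrane, was at 215.7, 203.5 and 164.6 FPKM in adult and 35.0, 32.1 and 44.6 FPKM at E16.5, a log2 change of 2.36 (adjusted p = 0.00558). Atp1b3 (log2 change 2.37, adjusted p = 0.0201), another beta subunit, and Slc12a4 (1.66, adjusted p = 0.0238), a K+ and Cl- cotransporter, were also called higher. Fxyd1, a small regulator of the pump, overlapped between ages (log2 change -0.997, adjusted p = 0.174). The list's count fell to 3 without E16.5 replicate 1 or E16.5 replicate 2, and to 2 with every library set to the same sum. Without E16.5 replicate 1 the calls of Atp1b3 and Slc12a4 had adjusted p = 0.0640 and 0.0559. Without E16.5 replicate 2 they had 0.0680 and 0.0502. Without E16.5 replicate 3 Atp1b3 and Slc12a4 had 0.0685 and 0.0579, and Slc12a4 had 0.0527 without adult replicate 1.

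Of 20 genes whose proteins bind channels, 11 were tested, 0 were called higher and 3 lower, against 2.12 and 8.83% of all genes tested. Calm2 and Calm3, which encode calmodulin, the calcium sensor of Kcnn4 and Kcnq1, were among the genes called lower. Calm2 was at 82.9, 174.5 and 123.4 FPKM in adult and 775.1, 634.5 and 685.5 FPKM at E16.5, a log2 change of -2.51 (adjusted p = 0.00634). Calm3 had a log2 change of -1.59 (adjusted p = 0.00930). Near-identical coding sequences make the split of reads among calmodulin genes uncertain. Slc5a3, a myo-inositol transporter that binds Kcnq1 with Kcne2, was at 149.2, 127.0 and 61.4 FPKM in adult and 43.1, 51.0 and 56.5 FPKM at E16.5. The groups did not overlap, in an order that held for 7.39% of genes tested, but the change was not called (1.06, adjusted p = 0.116).

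Of 20 regulators of channels and transporters 19 were tested, 2 were called higher and 2 lower, against 2.12 and 8.83% of all genes tested. Kl, encoding klotho, a membrane protein and co-receptor for a phosphate-regulating hormone, was at 628.4, 531.0 and 502.7 FPKM in adult and 7.10, 8.94 and 6.03 FPKM at E16.5 (log2 change 6.06, adjusted p = 0.000166). Phpt1, a histidine phosphatase that acts on Kcnn4, was at 27.6, 44.0 and 115.3 FPKM in adult and 698.4, 521.2 and 537.6 FPKM at E16.5 (log2 change -3.45, adjusted p = 0.00961). That call was lost without E16.5 replicate 1 (adjusted p = 0.0510) or E16.5 replicate 2 (0.0502). The deubiquitinase gene Usp2 was called higher and the ubiquitin ligase gene Nedd4 lower, at log2 changes of 1.96 and -1.17. Usp2 lost its call without adult replicate 1 (adjusted p = 0.0697), adult replicate 2 (0.0579), E16.5 replicate 2 (0.0721) or E16.5 replicate 3 (0.0628). Nedd4 lost it without E16.5 replicate 1 (0.0639), 2 (0.0580) or 3 (0.0657).

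The genes whose levels followed Kcnj13 most closely over the 6 libraries were Mgat5, Tmem245, Drc7, Atp1b1 and Clock, with Pearson r of 0.991 to 0.994 on log2(FPKM + 1). Those most like Kcne2 were H1f0, Anapc13, Rbbp7, Dcp1a and Bmf, with r of 0.996 to 0.998. Libraries of an age share depth and composition, and these r are descriptions over n = 6. Atp1b1, the pump's beta subunit, stood at 361.0, 490.2 and 368.9 FPKM in adult against 112.0, 125.7 and 109.9 FPKM at E16.5.

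Across 18 alternative settings the direction of all 4 called subunits was kept, and Kcnj13 was called in every one (log2 change 2.13 to 3.43, adjusted p up to 0.0490 by limma). Kcnk1, Kcne2 and Kcnip1 were called in fewer. For Kcnip1, listed at 0 in every adult library, a kept direction tests nothing. A changed filter, trend, block or threshold leaves each estimate as it is, so that only the call could move there.

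**Figure D4:**
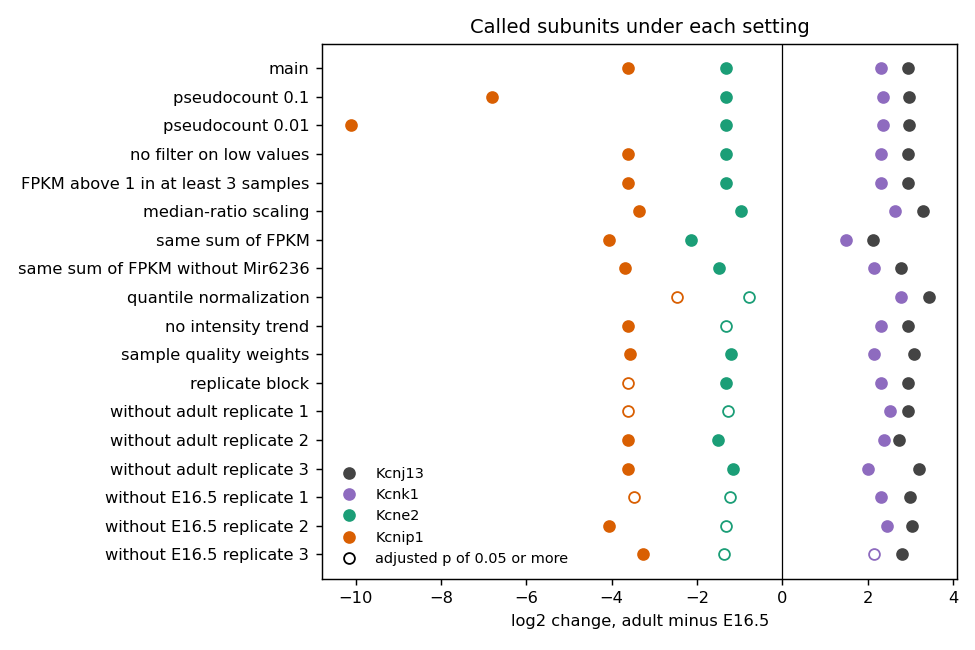
Log2 change, adult minus E16.5, of Kcnj13, Kcnk1, Kcne2 and Kcnip1 as reported (main) and under 17 other settings, with open points at an adjusted p of 0.05 or more. Kcnj13 is filled in every row, and the size for Kcnip1 grows as the pseudocount is lowered.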

How the data were processed

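Ribosome-bound mRNA of ChP was measured in 3 adult and 3 E16.5 libraries by single-end sequencing of low-input libraries depleted of ribosomal RNA. Per the labels and the study's methods, the authors aligned reads to mm10 with STAR (version 2.4.0 in the submitters' processing notes) and deposited FPKM per gene from Cufflinks tools; the annotation they used is not given in the sources used here. The deposited FPKM are not counts, and the total reads per library were not used here, so no counting interval was computed. Relative depth was estimated from the steps of low values in 2524 genes with 1 transcript. It assumes whole reads within 0.1, which held for 65.6 to 82.1% of the 36 to 64 low values used in each library.

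Tests used limma 3.58.1 (R 4.3.3) on the log2 of FPKM plus 1 for genes of mean FPKM above 1 (intensity trend, Benjamini-Hochberg, threshold 0.05), 3 adult against 3 E16.5 libraries, after the script was tested on simulated data. Ratios and shares were compared with two-sided exact permutation tests (SciPy 1.17.1). Group labels came from the sample titles. The members, the gene lists and the tests were chosen with earlier results of these data known. The rule for naming took all members and every called gene of the fixed lists. It added those of highest mean FPKM (5 for channels, 3 for other lists, 2 for markers) and the 5 genes most like Kcnj13 and Kcne2. Some of these were left out of the text. Other genes were named outside the rule, such as Kcnd2, Kcne1l, Kcnip2, Kcnk4, Slc5a3, Syt1, Aif1, Cd68 and genes that overlap a member. Some genes of these lists are not reported here. The replicate numbers of the 2 ages do not pair the samples: same-numbered libraries' deviations correlated at r = 0.0009, 0.044 and 0.015. Alternatives covered the pseudocount, the filter, scaling, the trend, sample weights, a replicate block, a stricter threshold and each library left out. Other sequences than promoters were not used.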

Additional observations from a re-analysis of the deposited data

How the results depend on the processing

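Over 18 alternatives for each of the 4 called subunits, 58 of 72 values kept direction and call, 14 lost the call and 0 turned round. Not all 72 could turn round. Kcnip1 was listed at 0 in every adult library, and a changed filter, trend, block or threshold leaves each estimate as it is. Kcnj13 kept its call in all 18, with log2 changes of 2.72 to 3.20 when a library was left out. Some of these calls were near the threshold, at adjusted p of 0.0386, 0.0490 and 0.0476 by limma without E16.5 replicate 1, 2 and 3. With a library left out, log2 changes were 2.02 to 2.53 for Kcnk1, -1.51 to -1.16 for Kcne2 and -4.07 to -3.28 for Kcnip1. At an adjusted p of 0.01, Kcnk1 (log2 change 2.31), Kcne2 (-1.31) and Kcnip1 (-3.61) were not called, which left 1 subunit higher and 0 lower. Quantile normalization took the calls of Kcne2 (-0.79) and Kcnip1 (-2.48) and left 0 lower. Without the intensity trend Kcne2 (-1.31) lost its call and 1 subunit was lower. Leaving out a library gave 1 to 2 subunits higher and 0 to 2 lower. The causes were not tested.

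Of all channel genes, 4 were higher and 0 lower after quantile normalization. With a pseudocount of 0.1, 4 were lower, with 0.01, 5, with FPKM above 1 in at least 3 samples, 4, and with equal sums, 4. At an adjusted p of 0.01, 1 was higher and 0 lower. Leaving out a library gave 1 to 3 higher and 0 to 2 lower. Pumps and cotransporters had 3 higher at 0.01, 2 higher and 1 lower with equal sums, and 3 to 7 higher when a library was left out. Over all genes, calls higher and lower were 246 and 1024 as reported, 348 and 660 with median-ratio scaling, 119 and 3238 with equal sums, 569 and 504 with quantile normalization, 158 and 949 without the trend, and 90 to 338 and 349 to 1704 without a library. Of 324 values for 18 other named genes, 47 lost a call and 4 gained one. No called change among them turned round, while 8 values of the uncalled genes Kcnh2 and Kcnab2 took the other sign.

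With a replicate block, in a design where the numbers do not pair samples, Kcnip1 had a log2 change of -3.61 and adjusted p of 0.0528, so that 1 subunit and 1 channel gene were lower. All-gene calls were 112 higher and 452 lower.

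The adult minus E16.5 difference in the Kcnj13 share was 16.0 to 23.2 percentage points when a library was left out and 5.39 over the pore-forming members alone, where the ages overlapped (exact permutation p = 0.4). That of Kcnk1 ran from -5.64 to 1.95 and was reversed without adult replicate 1 (1.67), adult replicate 2 (1.95) or E16.5 replicate 2 (0.22). Kcne2 over Kcnq1 was -1.43 to -1.08 without a library and -0.84 with a pseudocount of 0.1. The Kcnj13 to Kcne2 ratio, chosen after seeing the data, was 4.19 to 4.38. The part of depth in the subunits at or near 0 was not tested.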

Other observations

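Motile cilia markers, of which 4 of 5 were tested, were called lower in adult in 3 cases and higher in 0, with a summed level of 190 to 380 FPKM in adult and 815 to 1050 FPKM at E16.5. Mesenchymal markers summed to 13.3 to 21.9 FPKM in adult and 57.7 to 69.3 FPKM at E16.5. Mural cell markers overlapped, at 0.95 to 7.62 FPKM in adult and 3.58 to 7.05 FPKM at E16.5. Endothelial markers did too, at 0.435 to 26.8 FPKM and 12.3 to 39.7 FPKM. Of 14 epithelial markers 4 were called higher in adult and 2 lower, and without Ttr, which is listed at 0 at E16.5, 3 and 2. Over all genes tested, the shares were 2.12% higher and 8.83% lower.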
